A study of Mus musculus with 8 samples.

Results

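The interstitial collagens I, III and V are the fibril-forming collagens of skin, tendon, bone and the vessel wall, and their chains are encoded in the mouse by 6 genes: Col1a1, Col1a2, Col3a1, Col5a1, Col5a2 and Col5a3. The 6 genes were taken by name from a count table of 54658 genes, and all 6 were among the 14404 genes kept for testing, which had more than 1 CPM (counts scaled to library size) in at least 4 of the 8 samples. The samples were primary articular chondrocytes, the cells of joint cartilage, which were digested from the femoral heads of wild-type mice aged 3 weeks and grown as monolayers in serum-containing medium. Of these, 4 samples received IL-1β, an inflammatory cytokine raised in osteoarthritic joints, at 1 ng/mL for 24 h, and 4 received vehicle, whose make-up is not given in the sources used here. How many mice stood behind a sample, and whether the replicates came from separate animals or cultures, is not given in the sources used here, so p-values measure the spread between these samples, which may be technical. Total counts per sample ran from 10992355 to 17456063, and every sample held a single RNA, Gm26917, at 13.2 to 14.6% of its counts.

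Type I collagen is assembled from α1(I) chains (Col1a1) and fewer α2(I) chains (Col1a2), and type III collagen from α1(III) chains (Col3a1) alone. Type V collagen is a minor fibril component that sits inside type I fibrils and limits their diameter, built mainly from α1(V) and α2(V) chains (Col5a1, Col5a2), with the α3(V) chain (Col5a3) in a less common form. Cartilage fibrils consist instead of type II and type XI collagen, α2(V) chains can join type XI chains in cartilage, and expression of types I and III by cultured chondrocytes is a known mark of loss of the cartilage phenotype. The comparison of IL-1β with vehicle asks how chondrocytes respond to inflammation, and here how each of these chains responded.

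The 6 genes did not move as a group. After IL-1β, Col5a3 rose about 4.74-fold and Col5a2 rose 1.48-fold, whereas Col1a2 and Col5a1 fell by 53.2% and 51.1%, Col3a1 fell by 20.9%, and Col1a1 differed by -6.50%, which did not pass the test. The partner chains of a collagen therefore changed differently in both type I and type V. With edgeR's quasi-likelihood test and Benjamini-Hochberg adjustment over all genes, 2 of 6 genes were higher and 3 of 6 were lower at an adjusted p under 0.05, beside 20.4% of all tested genes called higher and 19.8% called lower. With a 2-fold change asked for as well, 1 of 6 was higher (Col5a3) and 2 of 6 were lower (Col1a2, Col5a1), beside 2.86% and 2.35% of all tested genes. In bulk samples, fewer cells of a type and less RNA per cell cannot be told apart.

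**Figure D1:**
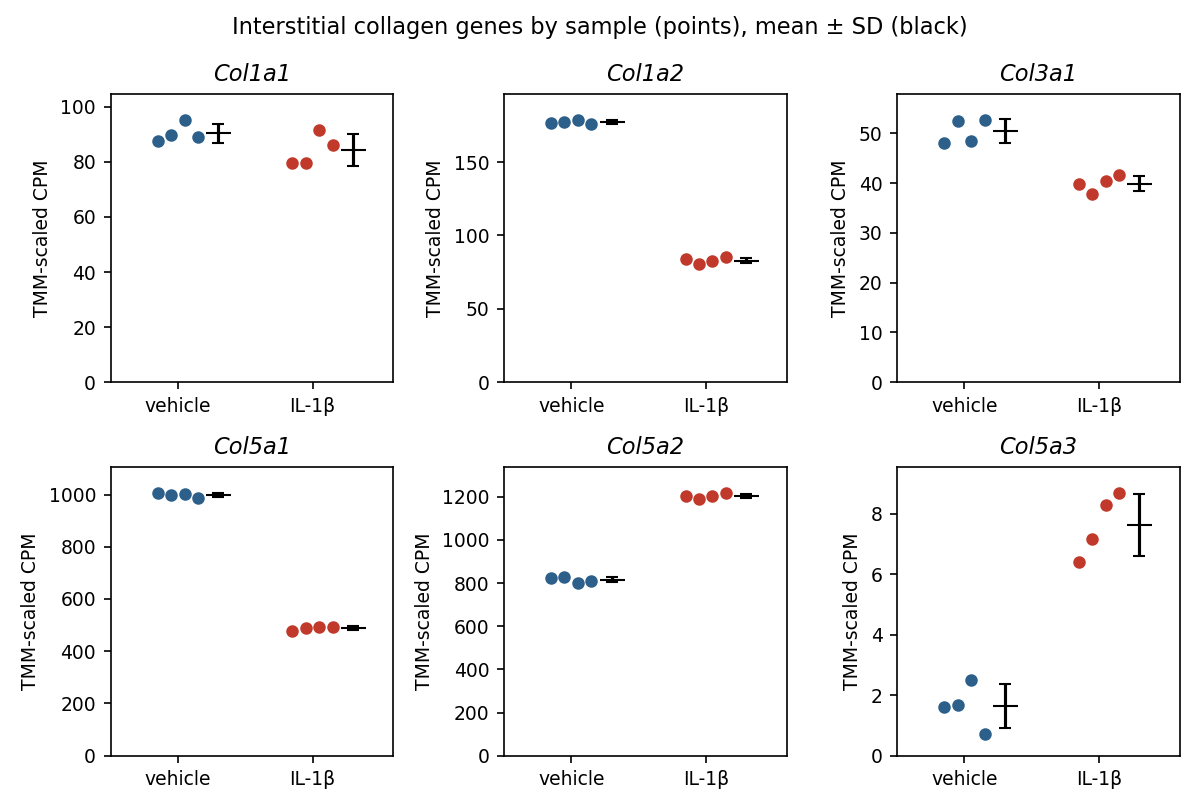
TMM-scaled CPM (linear axis from 0) of the 6 genes in each vehicle sample (blue points) and each IL-1β sample (red points), with the mean and SD of 4 samples in black. The groups overlap for Col1a1 (79.5 to 91.6 with IL-1β, 87.6 to 95.3 with vehicle) and stand apart for the other 5 genes, with Col5a2 and Col5a3 higher and Col1a2, Col3a1 and Col5a1 lower after IL-1β, beside 18.7% of all tested genes that stand apart upwards and 18.2% downwards.

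The sequence upstream of the gene is shown for 3 genes that responded in different ways: Col5a3, which rose, Col5a1, its partner chain, which fell by 51.1%, and Col3a1, which fell least of the genes called lower. Each run gives the 250 bases before the RefSeq start site on GRCm38.p6, read 5′ to 3′ on the gene's own strand, and for these genes the RefSeq and GENCODE starts are the same base. Capitals mark the CCAAT box (CCAAT) and the GC box (GGGCGG, or CCGCCC where it lies on the other strand), the classical elements bound by NF-Y and by Sp1. The Col5a3 run is chr9:20815068-20815317 (minus strand), the Col5a1 run is chr2:27886175-27886424 (plus strand) and the Col3a1 run is chr1:45311288-45311537 (plus strand).
Col5a3: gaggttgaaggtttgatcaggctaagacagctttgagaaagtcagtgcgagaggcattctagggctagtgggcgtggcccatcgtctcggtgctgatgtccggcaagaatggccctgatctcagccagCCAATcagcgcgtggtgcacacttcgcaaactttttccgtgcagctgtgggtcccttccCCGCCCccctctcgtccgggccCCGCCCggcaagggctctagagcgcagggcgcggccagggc
Col5a1: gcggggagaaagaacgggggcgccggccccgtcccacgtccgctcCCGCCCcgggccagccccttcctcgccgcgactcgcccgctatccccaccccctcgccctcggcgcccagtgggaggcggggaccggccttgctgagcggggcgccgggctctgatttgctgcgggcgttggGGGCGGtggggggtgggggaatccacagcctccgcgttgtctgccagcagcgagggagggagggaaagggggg
Col3a1: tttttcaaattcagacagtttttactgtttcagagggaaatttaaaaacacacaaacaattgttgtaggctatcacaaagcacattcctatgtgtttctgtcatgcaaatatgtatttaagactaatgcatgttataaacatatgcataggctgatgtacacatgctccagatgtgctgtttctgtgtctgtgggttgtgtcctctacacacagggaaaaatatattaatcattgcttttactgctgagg
In the Col5a3 window, a CCAAT box lay at bases -122 to -118 from the start and GC boxes at -63 to -58 and -41 to -36. The Col5a1 window held GC boxes at -205 to -200 and -73 to -68 and no CCAAT box. Col3a1 had neither, but a TATAAA at -117 to -112. The GC content was 62.8% for Col5a3, 76.4% for Col5a1 and 35.2% for Col3a1. Over 32851 RefSeq promoter windows of the same length, searched on both strands, 33.9% held a CCAAT box, 32.7% a GC box and 12.4% a TATAAA. Searches for the C/EBP pattern TTNNGNAA (36.9% of all windows), the AP-1 pattern TGANTCA (6.75%) and the NF-κB consensus (7.25%) gave 1 match in these windows, for C/EBP in Col5a3 at -218 to -211. The search was by letters, and no match says only that those letters are not in this window. A window was also at hand for Col1a2, whose RefSeq start lies 804 bases from the GENCODE start, with a CCAAT box at -109 to -105 and GC boxes at -205 to -200 and -188 to -183, and none for Col1a1 or Col5a2.

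Type I collagen is taken first. Col1a1 (ENSMUSG00000001506.10, chr11:94936224-94953042, plus strand, 51 exons, GRCm38) gave CPM of 79.5, 79.6, 91.6 and 86.0 in IL-1β samples 1 to 4 and 87.6, 89.8, 95.3 and 88.9 in vehicle samples 1 to 4. The third IL-1β sample lay above 3 of the vehicle samples, so the groups overlapped. The means were 84.2 ± 5.84 and 90.4 ± 3.39 (SD, n = 4 each), and the log2 fold change was -0.10 ± 0.04 (SE, 95% interval -0.19 to -0.0084, edgeR adjusted p = 0.076). Without the third IL-1β sample it was -0.14, with an edgeR adjusted p of 0.00781, so that the call changes without this 1 library. With all 8 samples and the replicate number as a block it also passed (-0.10, edgeR adjusted p = 0.028).

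Col1a2 (ENSMUSG00000029661.16, chr6:4504814-4541544, plus strand, 52 exons) gave CPM of 83.6, 80.5, 82.3 and 85.1 with IL-1β against 176.6, 177.0, 178.8 and 175.7 with vehicle. Every IL-1β sample was below every vehicle sample, and the spread within a group was small. The means were 82.9 ± 1.94 and 177.0 ± 1.30 (SD, n = 4 each), a log2 fold change of -1.10 ± 0.03 (SE, 95% interval -1.16 to -1.03, edgeR adjusted p = 7.4e-22). Tested against a 2-fold change rather than against none, the fall still passed (edgeR glmTreat adjusted p = 0.0184). The raw counts of the type I genes ran from 879 to 3054 per sample.

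Col3a1 (ENSMUSG00000026043.18, chr1:45311538-45349706, plus strand, 51 exons) gave CPM of 39.8, 37.9, 40.3 and 41.6 with IL-1β and 48.2, 52.4, 48.5 and 52.7 with vehicle. All IL-1β values were below all vehicle values, although the gap between the groups was smaller than for Col1a2. The means were 39.9 ± 1.54 and 50.5 ± 2.46 (SD, n = 4 each), a log2 fold change of -0.34 ± 0.05 (SE, 95% interval -0.43 to -0.24, edgeR adjusted p = 7.0e-07).

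The type V genes held both the most and the least abundant chains and responded in both directions. Col5a1 (ENSMUSG00000026837.15, chr2:27886425-28039514, plus strand, 66 exons) gave CPM of 476, 489, 493 and 492 with IL-1β and 1005, 1000, 1001 and 986 with vehicle. The groups stood far apart, each within a narrow range. The means were 488 ± 7.56 and 998 ± 8.57 (SD, n = 4 each), a log2 fold change of -1.03 ± 0.03 (SE, 95% interval -1.09 to -0.98, edgeR adjusted p = 3.3e-22). This fall lay close to the 2-fold line and did not pass a test against a 2-fold change (edgeR glmTreat adjusted p = 0.971).

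Col5a2 (ENSMUSG00000026042.16, chr1:45374321-45503282, minus strand, 54 exons) went the other way. Its CPM was 1203, 1188, 1204 and 1216 with IL-1β and 824, 827, 801 and 809 with vehicle, so that every treated sample was above every vehicle sample. The means were 1203 ± 11.3 and 815 ± 12.3 (SD, n = 4 each), and the log2 fold change was 0.56 ± 0.03 (SE, 95% interval 0.51 to 0.62, edgeR adjusted p = 2.7e-16). Col5a2 ranked 975 of 14404 tested genes from the most increased by log2 fold change.

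Col5a3 (ENSMUSG00000004098.7, chr9:20770050-20815067, minus strand, 67 exons) was scarce. Counts were 71, 99, 139 and 122 with IL-1β and 28, 29, 35 and 11 with vehicle, or CPM of 6.42, 7.16, 8.28 and 8.68 against 1.62, 1.68, 2.5 and 0.725. The lowest IL-1β value was more than the highest vehicle value, and the fourth vehicle sample was the only one below 1 CPM. The means were 7.64 ± 1.04 and 1.63 ± 0.73 (SD, n = 4 each), a log2 fold change of 2.24 ± 0.19 (SE, 95% interval 1.86 to 2.63, edgeR adjusted p = 6.0e-11). The rise passed a test against a 2-fold change (edgeR glmTreat adjusted p = 2.9e-06) and ranked 95 of 14404 from the most increased, at counts that leave the wider interval given here.

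**Figure D2:**
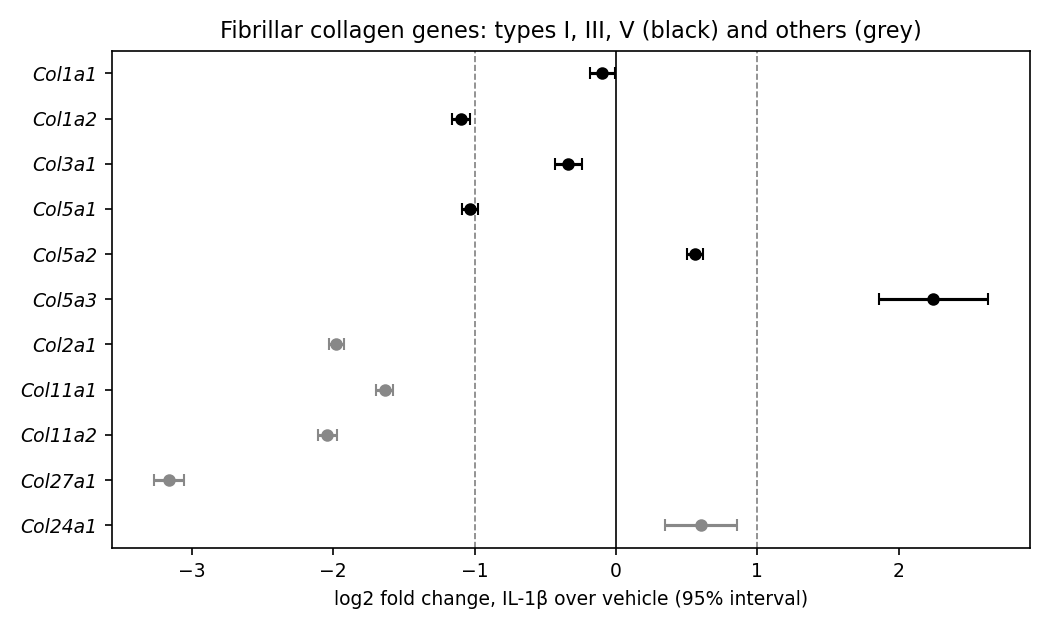
Log2 fold change of IL-1β over vehicle with its 95% interval for the 6 interstitial collagen genes (black) and the 5 other fibrillar collagen genes (grey), from 4 samples per group, with dashed lines at a 2-fold change. Col5a3 (2.24) and Col5a2 (0.56) lie right of 0, Col1a1 (-0.10) close to 0, and the cartilage genes Col2a1 (-1.98), Col11a1 (-1.64), Col11a2 (-2.04) and Col27a1 (-3.16) further left than any interstitial gene.

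Levels of different genes were compared as CPM per kb of the deposited gene length. With vehicle the order was Col5a1 (118 ± 1.01, SD), Col5a2 (85.0 ± 1.28), Col1a2 (14.3 ± 0.10), Col1a1 (13.8 ± 0.52), Col3a1 (5.14 ± 0.25) and Col5a3 (0.240 ± 0.11). The ranges over samples of Col1a2 and Col1a1 overlapped and those of the other neighbours did not. With IL-1β the order was Col5a2 (125 ± 1.17), Col5a1 (57.4 ± 0.89), Col1a1 (12.8 ± 0.89), Col1a2 (6.67 ± 0.16), Col3a1 (4.07 ± 0.16) and Col5a3 (1.12 ± 0.15), with no overlap between neighbours. With vehicle Col5a1 ranked 287 and Col5a2 414 of 14404 tested genes by level per kb, against 3163 for Col1a1 and 3071 for Col1a2. After IL-1β the ranks were 649 for Col5a1, 268 for Col5a2, 3395 for Col1a1 and 5676 for Col1a2.

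The order within a collagen type rests in part on the gene length. The deposited length of Col1a2 is 12426 bases, which counts the exons of all its annotated transcripts. Its coding transcript with the longest coding sequence, the kind taken here for each gene, has 5348 bases. Which transcripts the cells used was not measured. With coding transcript lengths, the vehicle order of Col5a1 and Col5a2 was turned, with Col5a2 at 123 and Col5a1 at 119 CPM per kb. On the same lengths, Col1a2 stood above Col1a1 with vehicle (33.1 against 15.2) and overlapped it with IL-1β (15.5 against 14.2). After IL-1β, Col5a2 was above Col5a1 with either length (181.5 against 58.0 with coding transcript lengths). Changes between groups in a single gene, or in the ratio of a pair of genes, do not depend on the length chosen.

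Ratios of counts per kb within a sample do not depend on the scaling between samples either, and 9 were tested by a two-sided exact permutation test over the 8 samples, adjusted over the 9. Every one gave an exact permutation p of 0.0286 and an adjusted p of 0.0286, which is the smallest p that 4 against 4 samples allow, and in each the groups did not overlap. The ratios share genes and are not independent of each other or of the fold changes above.

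Within type I, the ratio of Col1a1 to Col1a2 was 1.80, 1.87, 2.11 and 1.91 with IL-1β and 0.940, 0.960, 1.01 and 0.958 with vehicle. It was thus higher in all 4 treated samples, by 0.99 ± 0.05 on the log2 scale (SE, exact permutation p = 0.0286). With coding transcript lengths the mean ratios were 0.916 and 0.461, below 1 in both groups, so which of these mRNAs was the more abundant after IL-1β depends on the length. The ratio of Col3a1 to Col1a1 was 0.318 ± 0.017 with IL-1β and 0.374 ± 0.026 with vehicle (SD, n = 4 each), a log2 difference of -0.23 ± 0.06 (SE).

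Within type V, the ratio of Col5a1 to Col5a2 was 0.447, 0.465, 0.462 and 0.457 with IL-1β and 1.38, 1.37, 1.41 and 1.38 with vehicle. This was a 3.02-fold lower ratio after IL-1β, -1.60 ± 0.02 on the log2 scale (SE, exact permutation p = 0.0286), with a very small spread in both groups. Col5a3 to Col5a1 was 0.0168, 0.0183, 0.0210 and 0.0220 against 0.00201, 0.00210, 0.00312 and 0.000918, a log2 difference of 3.38 ± 0.38 (SE). The α3(V) mRNA thus remained far below the α1(V) mRNA in every sample. Col5a3 to Col5a2 differed by 1.79 ± 0.39 on the log2 scale (SE), and Col5a1 to Col1a1 by -0.93 ± 0.05.

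Against the cartilage collagens, the ratio of Col2a1, the main cartilage collagen, to Col1a1 was 24.4, 25.2, 22.2 and 24.8 with IL-1β and 90.0, 89.0, 82.4 and 91.8 with vehicle. Both groups held more Col2a1 than Col1a1, but the ratio was 3.66-fold lower after IL-1β (log2 difference -1.87 ± 0.05, SE, exact permutation p = 0.0286). With coding transcript lengths the mean ratios were 39.5 and 144.5. Col1a1 itself did not rise (log2 fold change -0.10, not past the test), while Col2a1 fell (-1.98). Col11a1, whose product is the type XI counterpart of α1(V), stood to Col5a1 at 0.854 ± 0.019 with IL-1β and 1.30 ± 0.032 with vehicle (SD, n = 4 each), a log2 difference of -0.60 ± 0.02 (SE). With coding transcript lengths this ratio was 1.41 and 2.13, above 1 in both groups, so which of these genes was the more abundant after IL-1β depends on the length. Col11a1 to Col5a2 was 0.391 ± 0.010 against 1.79 ± 0.032 (SD, n = 4 each), a log2 difference of -2.20 ± 0.02 (SE), and 0.449 against 2.06 with coding transcript lengths.

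**Figure D3:**
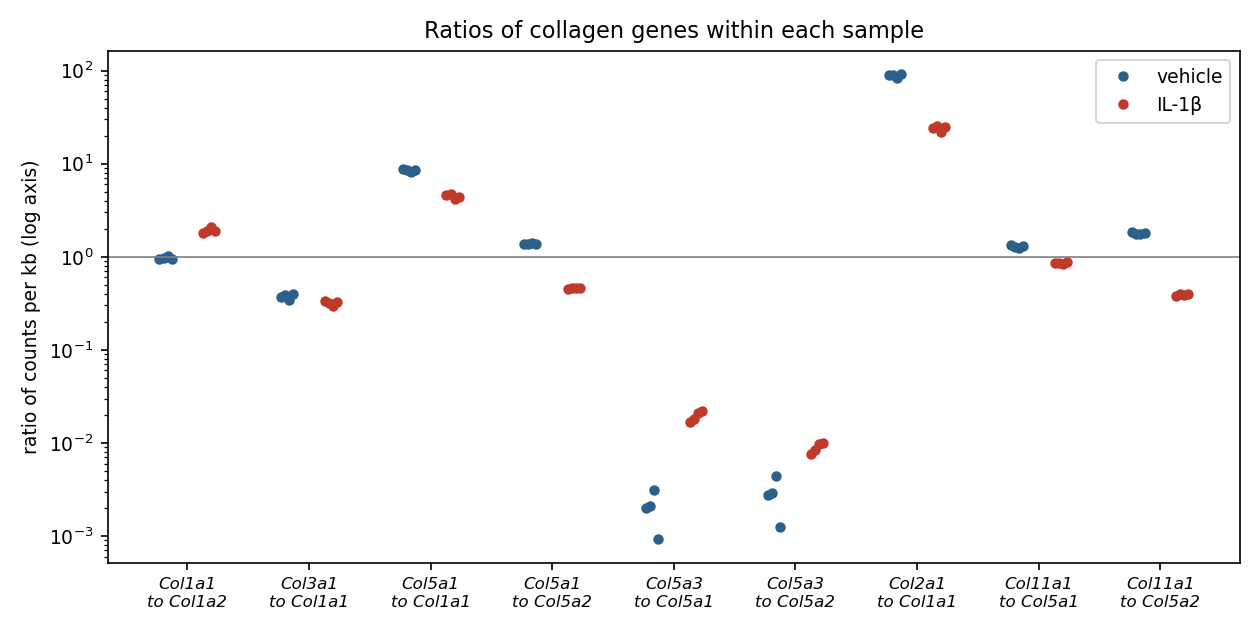
Ratio of counts per kb (log axis) of 9 gene pairs in each vehicle sample (blue) and each IL-1β sample (red), with a grey line at 1. The groups do not overlap in any pair, and the Col5a1 to Col5a2 ratio passes from above 1 (mean 1.38) to below 1 (mean 0.458), which with coding transcript lengths is 0.965 and 0.320.

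The make-up of the fibrillar collagen mRNAs moved towards the interstitial genes. As a share of the counts per kb of all 11 fibrillar collagen genes, the 6 interstitial genes were 36.2, 35.4, 35.7 and 34.6% with IL-1β and 14.1, 14.1, 14.2 and 13.6% with vehicle. Type V chains made up most of that share, 31.4 ± 0.61% against 12.0 ± 0.22%, with Col5a2 alone at 21.4 ± 0.49% against 5.04 ± 0.089% (SD, n = 4 each). Type I chains were 3.33 ± 0.13% against 1.66 ± 0.055%, and Col2a1 was 52.7 ± 0.69% against 72.0 ± 0.41%. A share also grows when the other genes fall, and the 6 genes together held 0.190 ± 0.0010% of all counts with IL-1β and 0.213 ± 0.0022% with vehicle (SD, n = 4 each). Their summed level was 208 ± 2.68 against 236 ± 1.77 CPM per kb, a difference of -12.1%, and with coding transcript lengths 278 ± 3.46 against 299 ± 2.21 CPM per kb, a difference of -7.28%.

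Within type V alone, Col5a1 was 31.2 ± 0.36% of the counts per kb with IL-1β and 58.0 ± 0.32% with vehicle, and Col5a2 was 68.2 ± 0.39% and 41.9 ± 0.36% (SD, n = 4 each). Col5a3 was 0.609 ± 0.077% and 0.118 ± 0.053%. The sum of the type V genes was 184 ± 1.71 and 203 ± 1.95 CPM per kb, and with coding transcript lengths 241 ± 2.18 and 242 ± 2.46, where the groups overlapped. The sum thus differed by -9.29% with the deposited and by -0.52% with the coding transcript lengths. The sum of the type I genes was 19.5 ± 0.94 with IL-1β and 28.0 ± 0.61 with vehicle, and the groups did not overlap with either length.

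**Figure D4:**
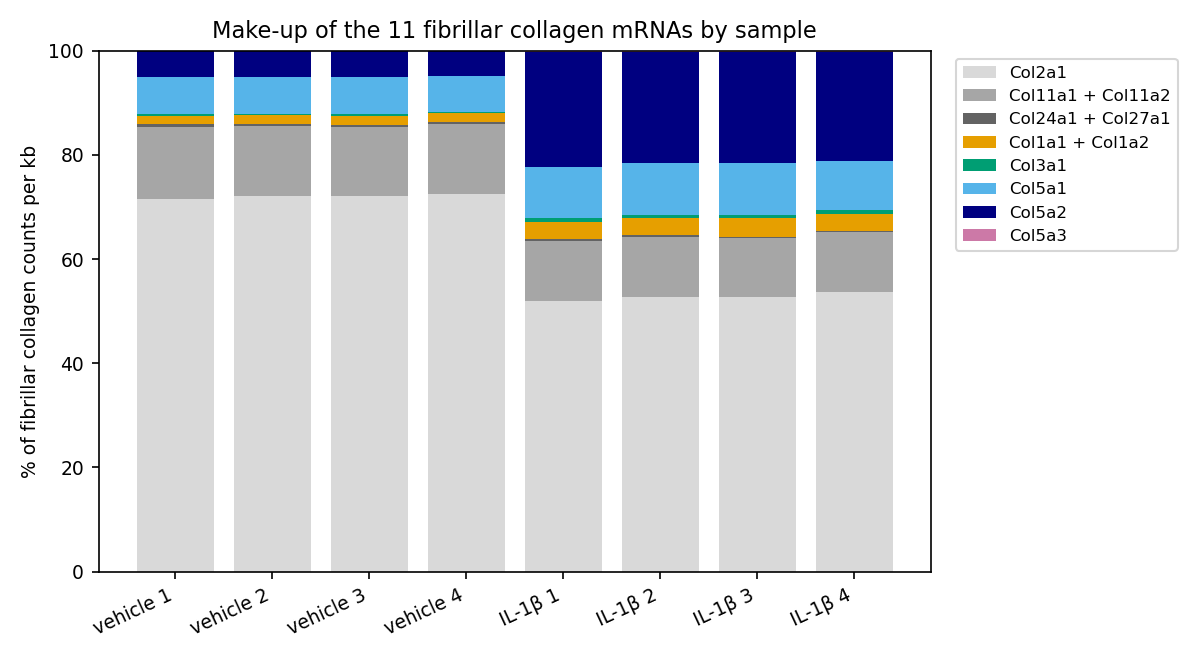
Stacked shares (in percent, axis from 0 to 100) of the 11 fibrillar collagen genes in the summed counts per kb of each sample, the other fibrillar genes in grey and interstitial genes in colour. Col2a1 takes 71.5 to 72.5% with vehicle and 51.9 to 53.6% with IL-1β, Col5a2 goes from about 5.04% to 21.4%, and Col5a3 (0.191% on average with IL-1β) is too small to be seen.

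Col3a1 and Col5a2 are neighbours on chromosome 1, with their ends facing each other and 24614 bases between them, and they changed in opposite directions. The other tested genes next to an interstitial collagen gene differed by at most 0.16 on the log2 scale: Rxra, before Col5a1 (log2 fold change -0.16, edgeR adjusted p = 0.0012), and Wdr75, beyond Col5a2 (-0.16, edgeR adjusted p = 0.0034), were lower, while Casd1 (-0.12) and Bet1 (-0.04) beside Col1a2 and Gulp1 (-0.03) beside Col3a1 did not pass. The neighbours of Col1a1 (Tmem92, Sgca) and of Col5a3 (Olfm2, Rdh8) were too low to be tested, and Fcnb beside Col5a1 had no counts.

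A pair of opposite-strand genes shares exon bases with Col5a1, namely 2810430I11Rik (99 bases, 1.17% of the Col5a1 exon bases) and Gm13372 (113 bases, 1.33%). Their counts were at most 108 and 34 per sample, and both were lower with IL-1β (log2 fold change -1.06 for 2810430I11Rik and -1.07 for Gm13372, edgeR adjusted p = 2.3e-07 and 0.0013). Whether the counting used strand is not given in the sources used here, so reads of these genes and of Col5a1 cannot be told apart in the shared bases. The counts of Col5a1 itself were 5269 to 17365 per sample.

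The genes that fold, cut, link and break down these collagens were read from lists, beside the median log2 fold change of all tested genes, -0.0012, and the shares of all tested genes called, 20.4% higher and 19.8% lower. Of 23 genes of procollagen folding and hydroxylation, 4 were higher, near the share over all genes, and 15 were lower (median -0.24). The ones past a 2-fold change were P3h2, a prolyl 3-hydroxylase (137 to 47.7 CPM, vehicle to IL-1β, log2 fold change -1.51), and Colgalt2, a collagen galactosyltransferase (10.8 to 4.11 CPM, -1.39). Of 9 genes of propeptide removal, 8 were tested, 4 of them lower (median -0.32). The procollagen C-proteinase enhancers Pcolce (-1.34) and Pcolce2 (-1.36) both fell past 2-fold.

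All 5 crosslinking enzymes of the lysyl oxidase family passed the test. Lox, which starts the crosslinking of collagen fibrils, rose from 400 ± 7.09 to 1153 ± 22.2 CPM (SD, n = 4 each, log2 fold change 1.53), while the other 4 fell: Loxl2 (-1.14), Loxl3 (-1.46), Loxl4 (-0.92) and Loxl1 (-0.32). Of 18 fibril assembly partners, 13 were tested, 3 were higher and 10 were lower (median -0.56). Decorin (Dcn), a small proteoglycan that binds type I fibrils, rose from 265 ± 10.5 to 758 ± 4.12 CPM (1.52), and its relative fibromodulin (Fmod) fell from 386 ± 10.4 to 90.4 ± 6.20 CPM (-2.09, SD, n = 4 each). Thbs1 (-1.66) and Ctgf, listed by its newer name Ccn2 (-1.39), both encode matricellular proteins and fell too.

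Of 10 collagen receptor genes, 8 were tested, 1 was higher and 5 were lower (median -0.34), with Itga10 (-1.14) and Itga11 (-1.06), subunits of collagen-binding integrins, past 2-fold. Of 14 genes of interstitial collagen breakdown, 10 were tested, 4 were higher and 1 was lower (median 0.06). Mmp13, the main collagenase of cartilage, rose from 32.2 ± 2.11 to 212 ± 4.96 CPM (log2 fold change 2.72), and Timp3, a metalloproteinase inhibitor, fell (-1.26). The gelatinase Mmp2 (0.71), the cysteine protease Ctsk (0.30) and the inhibitor Timp1 (0.54) were the others that rose.

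Of 24 regulators of type I, III and V collagen transcription and mRNA, 22 were tested, and 7 were higher and 7 lower (median -0.02), beside 20.4% and 19.8% of all tested genes. Cebpb, a transcription factor of inflammatory responses, rose (1.30), as did Nfkb1 (0.89), and Sp7, an osteoblast transcription factor, fell (-1.42). Of 6 TGF-β ligands and receptors, 2 were higher and 3 lower (median -0.23), with Tgfbr3, the coreceptor betaglycan, past 2-fold (1.90). Of the 5 other fibrillar collagen genes, Col2a1, Col11a1, Col11a2 and Col27a1 fell (log2 fold changes of -1.98, -1.64, -2.04 and -3.16), and Col24a1 rose at a low level (4.38 to 6.66 CPM, log2 fold change 0.60, edgeR adjusted p = 0.00022).

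**Figure D5:**
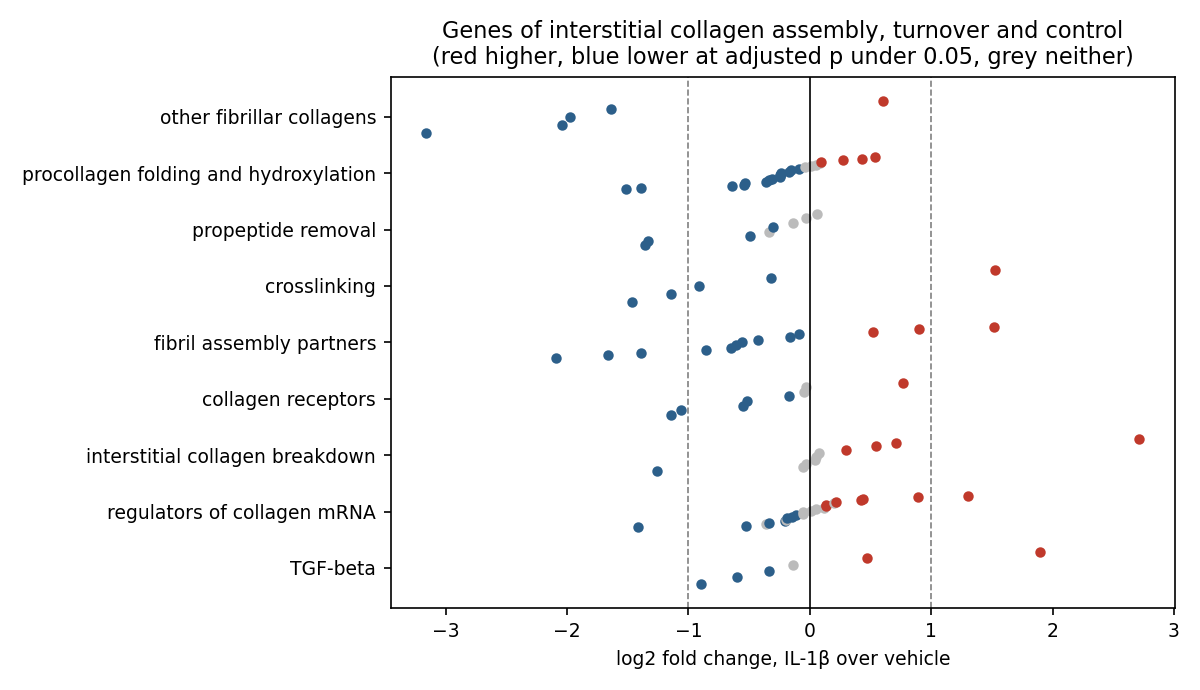
Log2 fold change of IL-1β over vehicle (horizontal axis) for each tested gene of 9 lists (rows, ordered by value within a row), red where higher and blue where lower at an edgeR adjusted p under 0.05 and grey where neither, with dashed lines at a 2-fold change. Blue points outnumber red ones for folding (15 against 4 of 23 tested), assembly partners (10 against 3 of 13) and receptors (5 against 1 of 8). They also do for other fibrillar collagens and crosslinking (4 against 1 of 5 each), propeptide removal (4 against 0 of 8) and TGF-β (3 against 2 of 6). Red ones outnumber blue for breakdown (4 against 1 of 10), where red Timp1 and blue Timp3 are inhibitors, and regulators are even (7 each of 22). Over all tested genes 20.4% were higher and 19.8% lower.

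The cell type of the label was checked by its markers. All 10 chondrocyte markers were detected, and their summed level was 14360 to 14930 CPM with vehicle and 3615 to 3986 CPM with IL-1β, with all 10 lower. The marker counts given here stand beside 20.4% of all tested genes called higher and 19.8% called lower. Markers of cells that make interstitial collagens were low beside them. The 10 fibroblast and tendon markers summed to 76.1 to 79.1 CPM with vehicle and 97.3 to 102 CPM with IL-1β (4 tested, Pdgfra and Cd34 higher). Of these, Scx (366 to 597 counts in a sample), Pdgfra (385 to 704), Cd34 (142 to 311) and Mkx (38 to 92) were well detected, and the other 6 had between 0 and 21 counts. The 8 osteoblast markers summed to 233 to 240 CPM with vehicle and 116 to 134 CPM with IL-1β, with 6 of 6 tested genes lower. Runx2 (686 to 1685 counts in a sample), Sp7 (206 to 971) and Alpl (268 to 722) were well detected. The bone matrix genes Bglap (70 to 292), Bglap2 (44 to 173) and Ibsp (11 to 277) were detected too. Phex had 2 to 16 counts, and Dmp1 had no more than 1 count. This osteoblast sum moved in the same direction as Col1a2, Col3a1 and Col5a1, and the fibroblast and tendon sum in that of Col5a2 and Col5a3. Col1a1 did not pass the test in either direction. In the fibroblast and tendon list, Pdgfra (log2 fold change 0.58) and Cd34 (0.76) rose, while Scx (0.12) and Mkx (-0.36) did not pass. The part of either cell type in the collagen results was not tested.

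Macrophage markers summed to 14.84 to 17.03 CPM with vehicle and 30.01 to 33.57 CPM with IL-1β. Of 3 tested genes Cd14 and Cd68 were higher and Lyz2 lower, beside 20.4% higher and 19.8% lower over all tested genes. C1qb was at 0 in all samples, and Ptprc and Adgre1 at no more than 6 and 3 counts. Smooth muscle and pericyte markers summed to 15.2 to 16.4 CPM with vehicle and 3.91 to 5.30 CPM with IL-1β, of which Acta2 was the 1 tested gene and fell (-2.03). Endothelial markers stayed at 0.651 to 1.25 CPM in all samples, and their 5 genes were too low to be tested. The part of these cell types in the collagen results was not tested.

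For each collagen gene, the most similar profiles were sought among the 8758 genes with a mean of at least 10 CPM, as the smallest root mean square distance between log2(CPM + 1) values over the 8 samples, each less the gene's vehicle mean. The distance is given as a description and says nothing of shared function. Closest to Col5a1 were Tpm2 (0.0248), Snai2 (0.0278) and Klhl29 (0.0306), and closest to Col1a2 were Meg3 (0.0342), Hapln1 (0.0373) and again Klhl29 (0.0408). Col5a2 lay nearest to Taldo1 (0.0233), Npepps (0.0267) and Rab11fip5 (0.0299), and Col3a1 to Kdelc2 (0.0294), Htra1 (0.0334) and Ext2 (0.0374). The profile of Col1a1 was matched by 9530068E07Rik (0.0333), Hoxa9 (0.0365) and Gpc4 (0.0378). Col5a3 lies below that level itself, so genes of like abundance were not searched. Its nearest among the genes searched were Nfkbia, the inhibitor of NF-κB (0.258), Grb14 (0.270) and Tmem176b (0.271). The 1 added to the CPM shrinks the change of so scarce a gene. The log2 fold changes of these 3 genes (1.89, 1.72 and 1.90) were smaller than that of Col5a3 (2.24).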

How the data were processed

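The data were RNA-seq counts by gene in 8 mouse chondrocyte samples, 4 given IL-1β and 4 given vehicle. Per the labels and the study's methods, the authors trimmed reads with cutadapt, aligned them with STAR to mm10 (version 2.4.2a in the submitters' processing notes, GENCODE vM20 annotation) and deposited raw counts per gene from featureCounts. The methods also name a batch correction by RUVseq, and whether the deposited counts precede it is not given in the sources used here. Counts were whole numbers. The deposited gene length matches merged exon lengths for all members in the GENCODE release used here, which is later than vM20. Among the other fibrillar collagen genes, Col11a2 differed (6831 bases deposited against 6874).

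Counts were filtered (CPM above 1 in at least 4 samples, 14404 of 54658 genes), scaled by TMM (factors 0.984 to 1.010) and fitted for treatment with edgeR 4.0.16 (quasi-likelihood, common biological coefficient of variation 4.11%, Benjamini-Hochberg adjusted p under 0.05). CPM used TMM library sizes. SDs are between samples. The fits were tested on simulated data. Exact permutation tests used scipy 1.17.1. Coordinates came from GENCODE (GRCm38) and promoter sequences from RefSeq (4 of 6 members matched). DESeq2 1.42.0 and other alternatives were run. Within a group no libraries agreed within sampling noise. The members and lists were chosen with earlier results of these data known. Genes named were all members, list genes past the test and a 2-fold change, ratio partners, annotated neighbours and the 3 nearest profiles of each member. Mmp2, Ctsk, Timp1, Nfkb1, Loxl1, Loxl4, Col24a1 and the marker and overlapping genes were named after their values were seen.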

Additional observations from a re-analysis of the deposited data

How the results depend on the processing

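DESeq2, DESeq2's size factors in edgeR, total counts as library size, other filters, 1 RUVs factor and the replicate block left the direction of all members as reported. Over these settings the log2 fold change of Col5a3 was 2.23 to 2.25, of Col5a2 0.56, of Col1a2 -1.10 to -1.09 and of Col5a1 -1.04 to -1.03. With CPM above 1 asked for in all 8 samples, Col5a3 was not tested. With a log2 fold change beyond 2, 1 member (Col5a3) was called in place of 3, and tested against a 2-fold change (edgeR glmTreat) 2 were called, without Col5a1.

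At an adjusted p under 0.05, Col1a1 was the only tested member whose call changed under these settings. Without 1 sample its log2 fold change ranged from -0.14 (without IL-1β replicate 3, edgeR adjusted p = 0.0078) to -0.071, and with the replicate number as a block it was -0.10 (edgeR adjusted p = 0.028). Whether the numbers pair the samples is not given in the sources used here. Deviations from the group means correlated with r of -0.070 to 0.042 for same-numbered samples and -0.085 to 0.091 for the others. Sampling noise of low counts also lowers r, so these values cannot exclude a pairing. The block changed no other member's call. Without 1 sample, Col5a3 ranged from 2.01 to 2.49. The exact test of a ratio cannot pass the threshold without 1 sample (smallest p 0.0571) or within 4 pairs (smallest p 0.125), so only values were compared, and all 9 ratios kept their direction.

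Levels and shares moved with the gene length. With coding transcript lengths, chosen after seeing the data, the 6 members were 29.4% of the fibrillar counts per kb with IL-1β and 10.5% with vehicle, and with no division by length 34.5% and 13.4%. No list count moved over 1.5 times. Counts of 11 to 35 per vehicle sample limit the precision for Col5a3.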
